A study of Gallus gallus with 4 samples.

Results

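CDKN2B, CCNG1, CCNG2 and E2F1 are 4 regulators of the cell cycle that were read on a dual color array comparing immortal DF-1 cells with primary chicken embryo fibroblast (CEF) cells. By the study's naming of the probes, they comprise an INK4 inhibitor of cyclin dependent kinases, both cyclins of the G type and an E2F factor. The genes were found by the GenBank accessions under which the study lists them. Each accession occurred on 1 probe, so that 4 of the 42034 gene probes are described. DF-1 is a single spontaneously immortalized, non-transformed cell line that arose from embryos of Line 0, a chicken line free of endogenous virus, and it was harvested at a late passage. The primary CEF cells were dissociated from whole embryos of specific-pathogen free chickens and harvested at an early passage, and neither cell type carried a transgene or received a treatment. Both cell types were grown in the same medium but came from different chickens, and the study gives a faster growth for DF-1 cells. The immortal state, the passage, the chicken of origin and the growth rate therefore cannot be told apart. DF-1 RNA (Cy5) and primary CEF RNA (Cy3) were hybridized together on each of 4 arrays, which the labels give as biological replicates, whereas the design text of the record mentions 1 sample of each. The spread between arrays may therefore be technical.

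In mammals, proteins of the INK4 class bind the kinases CDK4 and CDK6 and keep cyclin D from activating them. The retinoblastoma protein then stays unphosphorylated and holds E2F factors inactive, and the cell remains in G1. When the kinases are active, E2F1 is released and induces genes of DNA replication, together with its own gene and those of other E2F factors. Cyclin G1 is a transcriptional target of p53, and cyclin G2 is a target of FOXO factors that accumulates in cells leaving the cycle. Neither of the G cyclins is known to drive the cycle as cyclins D, E, A and B do. Loss of INK4 inhibition is a common event when mammalian fibroblasts escape senescence.

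The ratios rested on single 60 base probes, of which 3 could be read from the study's list of lower probes. They are shown because each ratio described here comes from that stretch alone. Whether the array held other probes of these genes could not be told, since most gene probes had no symbol. The probe of E2F1 was not read, since the list was available in part.
CDKN2B: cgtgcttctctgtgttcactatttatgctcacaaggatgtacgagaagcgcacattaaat
CCNG1: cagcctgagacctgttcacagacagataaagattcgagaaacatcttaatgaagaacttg
CCNG2: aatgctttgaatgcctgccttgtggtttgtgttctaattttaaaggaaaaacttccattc
These probes had a GC content of 41.7% for CDKN2B, 40.0% for CCNG1 and 35.0% for CCNG2. None of them shared a run of 15 bases, on either strand, with any of the other 1772 probes in the part of the list that could be read. The same list gives the CDKN2B probe under the symbol CDKN2A, while the study's table of named genes gives it as CDKN2B, and RefSeq (assembly GRCg7b) lists the 2 as neighbouring genes and also gives CDKN2A as a synonym of CDKN2B. The probe is called CDKN2B here after the study's table, and which of the 2 transcripts it measures was not tested. Its label as an INK4 inhibitor rests on that name. No coordinates are given, because the annotation at hand is of another build than the array.

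The 4 genes come from lists of genes that were chosen by the fold change and p of these same arrays, so their values and calls are given as a description, and no p is given for them. All values are log2 ratios as deposited, with DF-1 on top, so that a negative value means less signal in DF-1 cells. In such a comparison of bulk RNA, fewer cells of a type and less RNA per cell cannot be told apart. The median of all gene probes was -0.04, 0.20, 0.21 and 0.47 on arrays 1 to 4, and the negative control probes had medians of 0.02, 0.17, 0.38 and 0.53. At an unadjusted p under 0.05 in limma and a change of 2 fold, 12.2% of the gene probes were called, 6.12% higher (2571 probes) and 6.06% lower (2548 probes) in DF-1 cells. With the median of every array set to 0, 1749 probes were called higher and 3262 lower. The 4 genes included 1 called higher and 3 called lower, which their selection fixes.

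CDKN2B, the gene of the inhibitor p15INK4B by the study's naming of the probe, had by far the lowest ratio of the 4 genes. Its log2 ratio was -7.82 on array 1, -7.20 on array 2, -7.71 on array 3 and -7.12 on array 4. Arrays 1 and 3 were lower than arrays 2 and 4. The same split held with the median of every array set to 0, at -7.77 and -7.92 against -7.40 and -7.60, while the order within each pair changed. The mean was -7.46 ± 0.35 (SD, n = 4 arrays), which corresponds to a signal 176 fold lower in DF-1 cells. The linear ratio of DF-1 over primary CEF was 0.00580 ± 0.00139 (SD, n = 4). Among the 42034 gene probes it took rank 2 from the lowest on arrays 1 and 3 and rank 3 on arrays 2 and 4, and its mean took rank 3. The ratio does not give the level left in DF-1 cells, and since the intensities of both channels were not used here, it is unknown whether the DF-1 signal of this spot was above background. Its named neighbours in size were SLC25A4, the mitochondrial ADP/ATP carrier, at -7.48 ± 0.14, ST3GAL1, a sialyltransferase, at -6.95 ± 0.35, and NOV, a secreted matricellular protein, at -8.17 ± 0.09 (SD, n = 4). SLC25A4 was the gene with the most similar values, with a root mean square difference of 0.27 over the 4 arrays with their medians set to 0, and the 2 means lay within the spread of the arrays. ST3GAL1 and NOV followed with root mean square differences of 0.60 and 0.77.

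**Figure D1:**
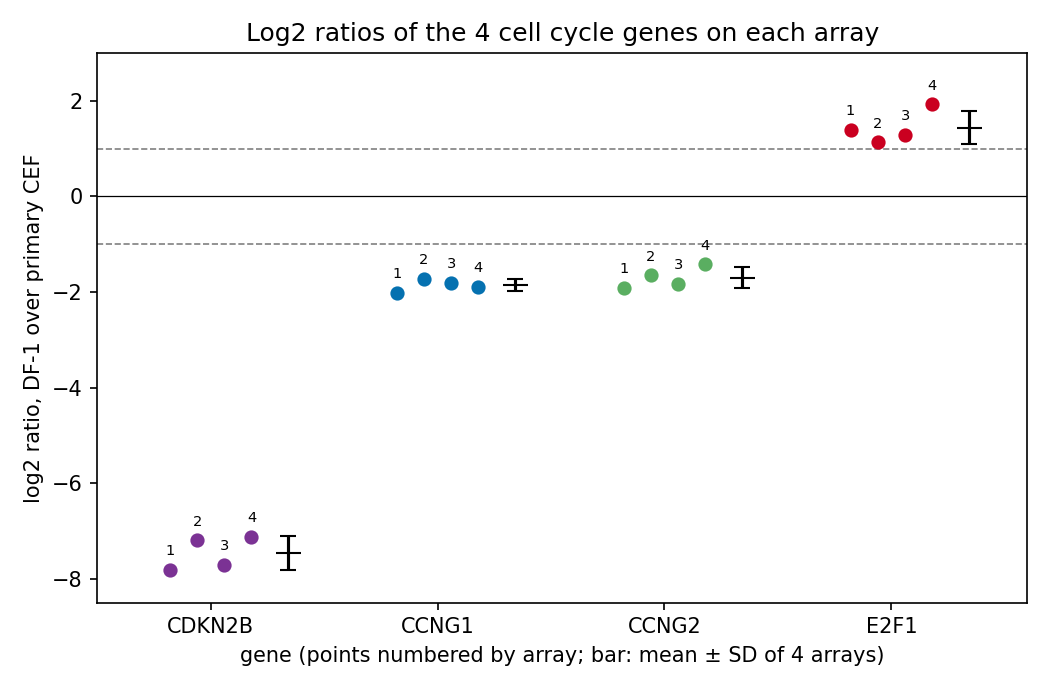
Log2 ratio of DF-1 over primary CEF (y axis) for CDKN2B, CCNG1, CCNG2 and E2F1 (x axis). Points are the 4 arrays, numbered, bars are the mean and SD, and dashed lines mark a 2 fold change. CDKN2B lay between -7.82 and -7.12, both G cyclins between -2.02 and -1.42, and E2F1 between 1.13 and 1.93.

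CCNG1, the cyclin induced by p53 in mammals, was lower in DF-1 cells with a narrow spread. It had log2 ratios of -2.02, -1.73, -1.81 and -1.89 on arrays 1 to 4. All of them were below the threshold of -1, and the arrays differed by no more than 0.29 from each other. The mean of -1.86 ± 0.12 (SD, n = 4) corresponds to 3.63 fold less signal in DF-1 cells, and only 8.49% of the gene probes had a smaller SD. Of all gene probes, between 2.31% and 3.36% were lower than CCNG1 on each array, and 2.77% by the mean. The named genes with the most similar values were SDR42E1 at -1.86 ± 0.08, NUF2 at -1.85 ± 0.10 and MAP2 at -1.82 ± 0.15 (SD, n = 4), with root mean square differences of 0.06, 0.08 and 0.09 among 1009 named genes. The narrow spread of CCNG1 held for the values as deposited, whereas with medians set to 0 array 4 moved to -2.36, beside -1.98, -1.93 and -2.02 on arrays 1 to 3, and the mean was -2.07 with an SD of 0.19.

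CCNG2, the cyclin linked to exit from the cycle, was lower in DF-1 cells to nearly the same extent as CCNG1. Its log2 ratios were -1.91, -1.65, -1.83 and -1.42 on arrays 1 to 4. Array 4 was the least negative and arrays 1 and 3 were the most negative. The mean was -1.70 ± 0.22 (SD, n = 4), or 3.26 fold less signal in DF-1 cells, and 3.15% of the gene probes had a lower mean. With the array medians set to 0, CCNG2 took values of -1.87, -1.85, -2.04 and -1.89, and its SD fell to 0.09. The gene thus gave more even values after the shift and CCNG1 less even ones. FILIP1 at -1.63 ± 0.22, PLOD2, a lysyl hydroxylase of collagen, at -1.79 ± 0.22, and FZD1, a Wnt receptor, at -1.69 ± 0.20 (SD, n = 4) had the most similar values, with root mean square differences of 0.09, 0.09 and 0.10.

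The 2 G cyclins could hardly be separated from each other. CCNG1 minus CCNG2 was -0.11, -0.08, 0.02 and -0.46 on arrays 1 to 4, a mean of -0.16 ± 0.21 (SD, n = 4). The difference was negative on 3 of the 4 arrays and smaller than its own SD. CDKN2B was apart from both on every array. CDKN2B minus CCNG1 ran from -5.90 to -5.24 with a mean of -5.60 ± 0.30, and CDKN2B minus CCNG2 ran from -5.90 to -5.55 with a mean of -5.76 ± 0.17 (SD, n = 4).

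E2F1, the activator of genes for the G1/S transition, was the only one of the 4 genes that was higher in DF-1 cells. It had log2 ratios of 1.40, 1.13, 1.29 and 1.93 on arrays 1 to 4. Array 4 was the highest, and arrays 1 to 3 lay between 1.13 and 1.40. The mean of 1.44 ± 0.35 (SD, n = 4) corresponds to 2.71 fold more signal in DF-1 cells, and 2.74% of the gene probes had a higher mean. The share of probes above E2F1 was 2.20%, 6.69%, 2.94% and 2.13% on arrays 1 to 4, so its place was lowest on array 2. E2F1 was also the gene closest to the threshold of 1. With the array medians set to 0 its values were 1.44, 0.93, 1.07 and 1.46, with a mean of 1.23, and after a shift by the negative controls they were 1.38, 0.96, 0.90 and 1.40, with a mean of 1.16. The mean passed 1 in each case, but 1 array lay below 1 in the first case and 2 arrays in the second. Among the named genes of changed probes, GHITM at 1.03 ± 0.20 was the higher gene just inside the threshold, NACC2 at -1.01 ± 0.24 was the lower gene just inside it, and STT3A at -0.998 ± 0.107 was the lower gene just outside it (SD, n = 4). The named genes most similar to E2F1 were C12orf32 at 1.48 ± 0.25, KIAA0319L at 1.36 ± 0.28 and DUSP4, a phosphatase of MAP kinases, at 1.40 ± 0.24 (SD, n = 4), with root mean square differences of 0.10, 0.11 and 0.11.

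**Figure D2:**
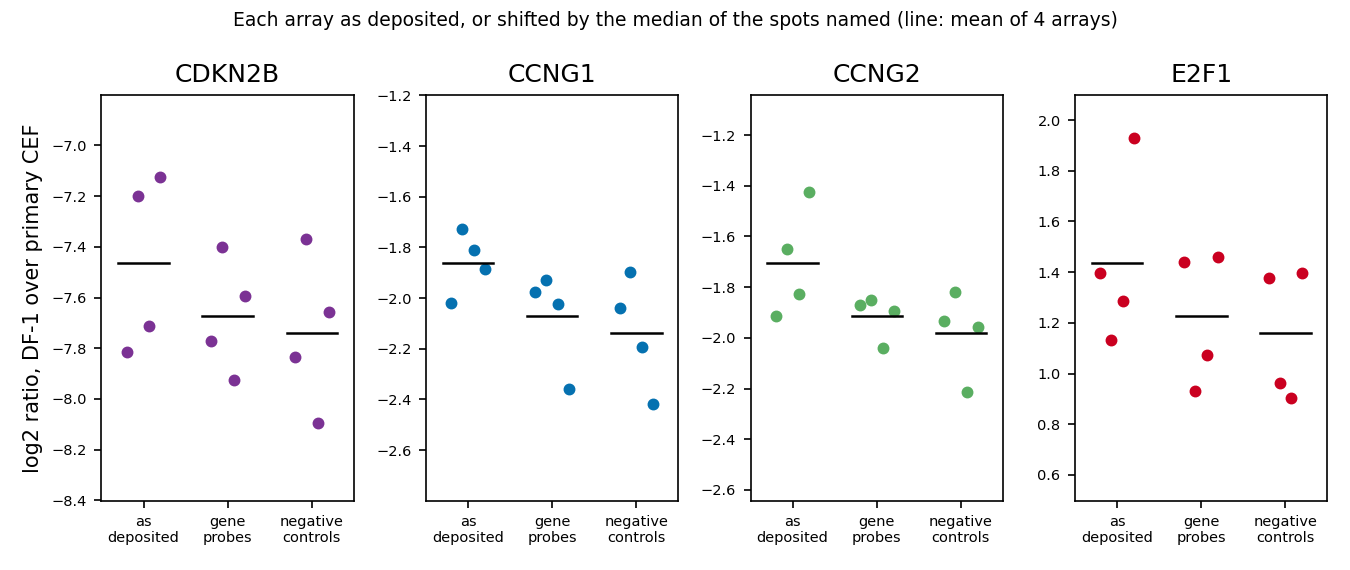
Log2 ratio of DF-1 over primary CEF (y axes, each spanning the same width) for the 4 genes, with the arrays as deposited or shifted by the median of the gene probes or of the negative controls (x axes). Points are arrays 1 to 4 from left to right and lines are means. Both shifts lowered every mean, that of CDKN2B to -7.67 and -7.74 and that of E2F1 to 1.23 and 1.16.

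**Figure D3:**
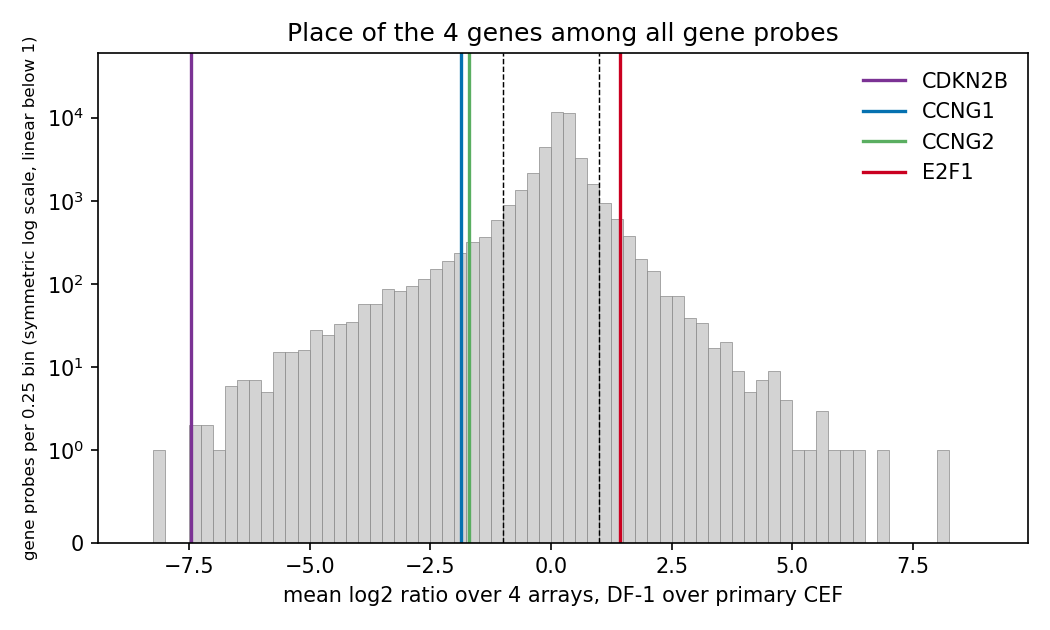
Number of gene probes (y axis, symmetric log scale) by mean log2 ratio of DF-1 over primary CEF (x axis) for all 42034 gene probes, with dashed lines at a 2 fold change. Colored lines mark the 4 genes: CDKN2B at -7.46 stood at the lower end, and CCNG1 at -1.86, CCNG2 at -1.70 and E2F1 at 1.44 lay in the flanks.

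Many spots carried a ratio that was repeated exactly elsewhere on the same array. Between 53.3% and 56.7% of the gene probes shared their ratio with at least 1 other spot, and the most frequent ratio occurred on 548 to 713 spots of an array. The ratio of each of the 4 genes was unique on each of the 4 arrays. As deposited, the SD of CDKN2B was larger than that of 61.4% of the gene probes and that of E2F1 larger than that of 60.1%. The median SD over all gene probes was 0.30. With the array medians set to 0, the SD was 0.23 for CDKN2B and 0.26 for E2F1, against a median SD of 0.25.

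The genes around this pathway were read from lists of symbols, and most symbols on the array came from genes that the study had chosen as changed, so that 85.8% of the 1034 probes with a symbol were called, 39.2% higher and 46.6% lower. Counts of the lists have to be read against these shares and are not independent evidence of direction. Among the CDK inhibitors and pocket proteins, 3 of 14 symbols were found and all 3 were lower, at a median log2 ratio of -4.79 against 0.22 over all gene probes. Without CDKN2B the count was 2 lower of 2, at a median of -2.92. Besides CDKN2B these were CIP1, the p21 inhibitor of CDK2 complexes, at -4.79 ± 0.22, and CDK2AP1, a protein that binds CDK2, at -1.05 ± 0.39 (SD, n = 4). CIP1 had -5.04, -4.81, -4.82 and -4.49 on arrays 1 to 4, and CDKN2B was lower than CIP1 on each of them, by a mean difference of -2.67 ± 0.21. The symbol CIP1 was taken from the study's list of lower probes, which could only name a gene that was lower. CDK2AP1 was not called without array 1 or without array 3. RB1, the gene of the retinoblastoma protein, and the genes for p27 and p57 could not be assigned to a probe with the tables used.

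Of 41 symbols of p53 targets, 6 were found, of which 0 were higher, 5 were lower and 1 was not called, with a median log2 ratio of -1.68. Without CCNG1 the count was 4 lower of 5, with a median of -1.49. CIP1 was the lowest, followed by BTG2, an antiproliferative protein, at -2.15 ± 0.09, CCNG1 at -1.86 ± 0.12, THBS1, a thrombospondin, at -1.49 ± 0.16, and TP53INP1, a nuclear protein induced by p53, at -1.31 ± 0.11 (SD, n = 4). BTG1, a relative of BTG2, had -0.79 ± 0.03 and was not called as deposited. It had -1.001 with the array medians set to 0, and 6 of the 6 p53 targets were then called lower, as they were after the shift by the negative controls. A second probe of THBS1 had -1.21 ± 0.15. CIP1 and BTG2 were named by the list of lower probes, and without that list 3 lower genes remained. The other 4 were named by the study's table of changed genes, so the counts follow largely from how the genes were named. Of all gene probes 6.06% were called lower, and of the probes with a symbol 46.6%. The p53 targets that were not found could not be read in either direction. Of 24 symbols of FOXO targets, CCNG2 was the 1 found, and of 30 symbols of cyclins, CCNG1 and CCNG2 were the 2 found, so cyclins D, E, A and B were not read. Of 33 symbols of cyclin dependent kinases and their activators, 1 was found: CDK6, a kinase that INK4 proteins bind, had 0.10, 0.90, 0.19 and 0.90 on arrays 1 to 4 and was not called.

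In the E2F and DP family, 2 of 11 symbols were found, E2F1 and E2F8, a repressor of the family that E2F1 induces in mammals, and both were higher. E2F8 had log2 ratios of 1.47, 2.40, 1.68 and 2.30 on arrays 1 to 4, a mean of 1.96 ± 0.46 (SD, n = 4). E2F1 was below E2F8 on all 4 arrays, by 0.08 on array 1 and 1.27 on array 2, and the mean of E2F1 minus E2F8 was -0.53 ± 0.52. E2F8 was high on arrays 2 and 4 and low on arrays 1 and 3, an order that E2F1 did not follow. The split was not particular to E2F8. CDKN2B, CDK6, DCN and COL3A1 were also higher on arrays 2 and 4, whereas CCNG1 and FEN1 did not show this. Its source was not tested. Of 91 symbols of E2F targets of the G1/S transition and S phase, older symbols included, 31 were found and all 31 were higher, with a median log2 ratio of 1.89 and a range from 1.18 for CHAF1A to 2.59 for RFC2. Without E2F1 the count was 30 of 30. With the array medians set to 0, 29 of the 31 were called higher, as CHAF1A had 0.97 and NASP, a histone chaperone, had 0.99, and after the shift by the negative controls 28 were. RFC2 and RFC3, subunits of the clamp loader, had 2.59 ± 0.46 and 2.43 ± 0.20, FEN1, a flap nuclease, had 2.42 ± 0.06, MYBL2, a transcription factor of the cycle, had 2.41 ± 0.27, ORC1, a subunit of the origin recognition complex, had 2.25 ± 0.38, and BARD1, the partner of BRCA1, had 2.20 ± 0.10 (SD, n = 4). E2F1 at 1.44 lay in the lower part of this range. All 31 were named by the study's table of changed genes, E2F1 and E2F8 among them, so their calls follow largely from that selection. Of all gene probes 6.12% were called higher, and of the probes with a symbol 39.2%. The symbols that were not found could not be read in either direction.

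**Figure D4:**
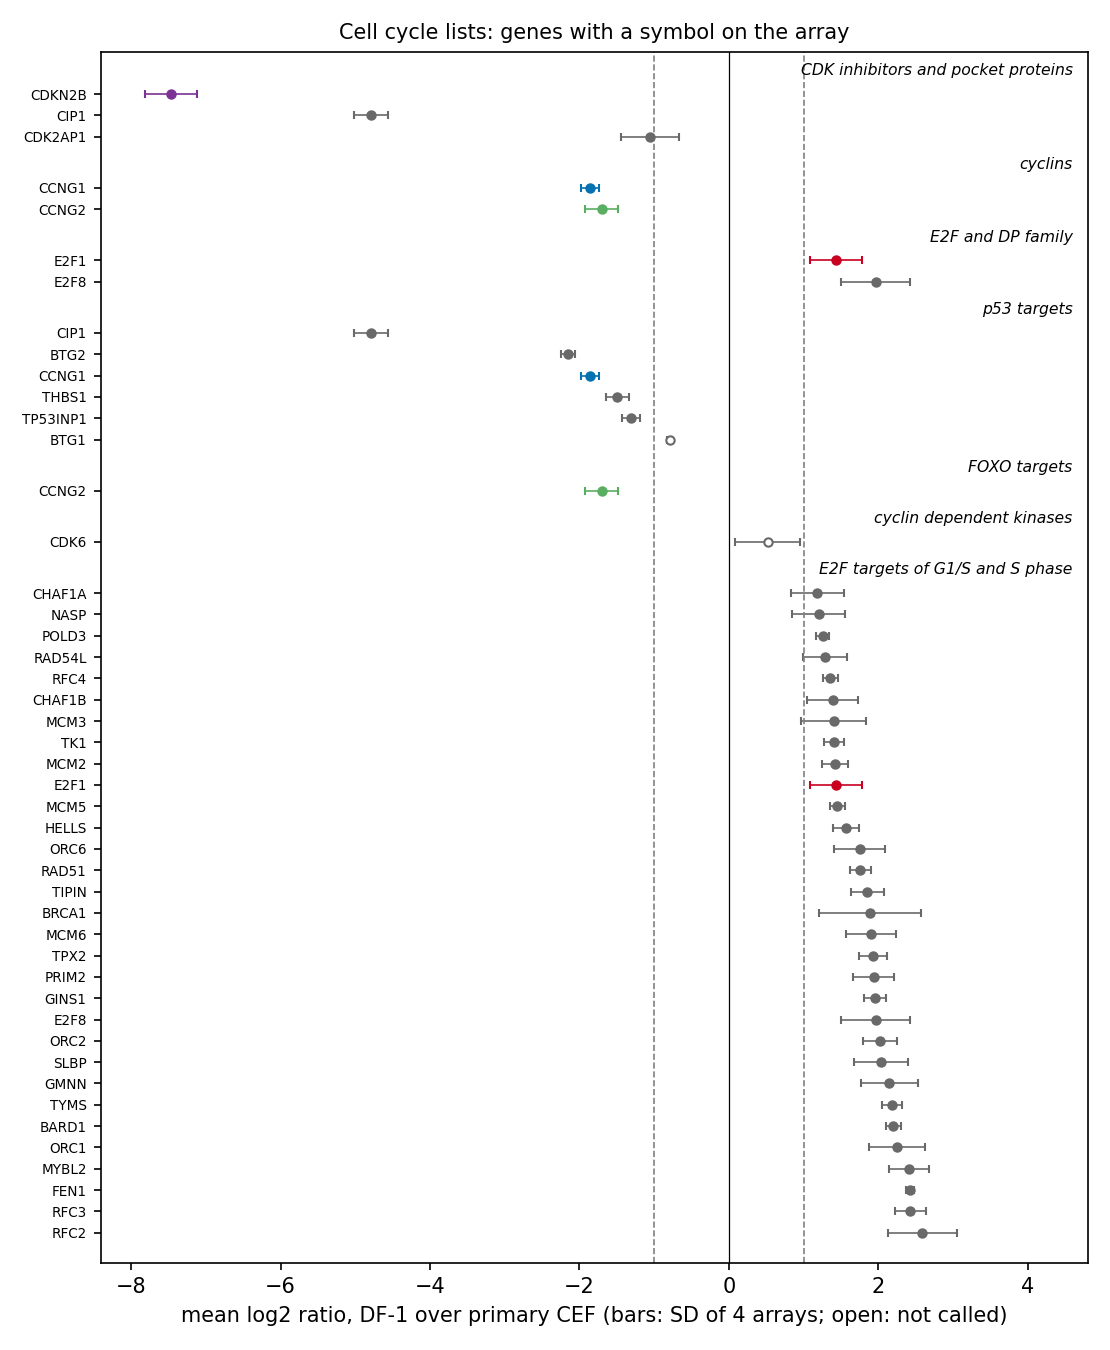
Mean log2 ratio of DF-1 over primary CEF (x axis) for the genes of the 7 cell cycle lists that had a symbol on the array (rows, grouped by list). Bars are the SD over 4 arrays, open points were not called, colored points are the 4 genes described and dashed lines mark a 2 fold change. The CDK inhibitors lay between -7.46 and -1.05, the p53 targets between -4.79 and -0.79, and the E2F targets between 1.18 and 2.59.

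In RefSeq order, the 5 protein coding genes on either side of CDKN2B had 0 named probes, and those of CCNG2 had 0 as well, so the ratios around these loci were not read. CDKN2A is among these neighbours of CDKN2B, and whether the CDKN2B probe measures it was not tested. Of the 10 neighbours of CCNG1, 2 had a named probe. TENM2, a teneurin, had -3.77 ± 0.38 and WWC1, a scaffold of Hippo signaling, had 1.19 ± 0.52 (SD, n = 4). Of the 10 neighbours of E2F1, 2 had a named probe. CHMP4B, a subunit of ESCRT-III, had 1.18 ± 0.11 and EDEM2, a protein of degradation in the endoplasmic reticulum, had 1.17 ± 0.38 (SD, n = 4). WWC1, CHMP4B and EDEM2 were named by the study's table of changed genes, so their calls follow largely from that selection. Whether the unread neighbours had similar ratios was not tested. The 2 neighbours of CCNG1 that were read differed in direction from each other.

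Of 12 symbols of fibroblast markers, 5 were found: DCN, LUM, COL3A1, FN1 and FBLN1. All 5 were lower, with mean log2 ratios from -5.71 to -1.32. The value of -1.32 was from the FN1 probe counted here, and the other FN1 probes had -2.48 ± 0.11 and -2.64 ± 0.32 (SD, n = 4). All 5 were named by the study's table of changed genes, so their calls follow largely from that selection. Of all gene probes 6.06% were called lower, and of the probes with a symbol 46.6%. For other cells that a culture from whole embryos could hold, 3 muscle symbols of 13 were found, of which MYH6 and MYL10 were higher and MYOD1 was lower, and SOX9 of the 11 cartilage and bone symbols and PECAM1 of the 7 endothelial symbols were lower. MYH6, MYL10, MYOD1 and SOX9 were also named by the table of changed genes. PECAM1 was named by the list of lower probes, which fixes its direction, and it ran from -3.03 on array 1 to -0.17 on array 4. The lists of 8 blood, 7 neural and 6 epithelial symbols had 0 found. The part of cell composition in the ratios of the 4 genes was not tested.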

How the data were processed

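RNA of DF-1 cells and primary CEF cells was compared on 4 dual color arrays (Agilent chicken oligo design). Per the methods, the authors subtracted background from both channels and applied loess normalization. They deposited a linear ratio (DF-1 on top) for each spot. Its mean and its SD over arrays were deposited as well, and neither was used. The medians of the deposited gene probe ratios ran from -0.04 to 0.47 in log2. Whether these ratios are the values after loess was not tested. The deposited second table holds the log2 of the same ratios, which matched to within 5.0e-05. The dyes were not exchanged on any array, so dye effects on a probe cannot be told apart from a difference between the cells. Of 45220 spots, 42034 were gene probes. Controls took no part in the fit. The ratio columns were converted to log2 and averaged, and a mean was fitted per probe and tested against 0 with limma 3.58.1 in R 4.3.3, 2-sided. The remaining steps used Python 3.11.15, pandas 2.3.3 and numpy 2.4.6. Calls required a change of more than 2 fold in the mean and an unadjusted p below 0.05, the criteria of the methods. The study itself reports fewer changed genes than the probes called here, and the reason for the difference was not tested. Its printed log ratios also differ from the means here. Those of CDKN2B and CCNG1 are more negative, and that of E2F1 is less positive. The fit was tested on simulated data.

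Symbols came by accession from the study's table of named genes (902 probes) and from RefSeq accessions (49 probes), and by probe name from the study's list of changed probes, of which only lower probes could be read (83 probes). For genes with more than 1 probe, that with the lowest probe name was counted. The genes and the lists were chosen with earlier results of these data known. The rule for naming genes was the 4 genes in full, the 3 named genes nearest to each by root mean square difference, at most 6 called genes with the largest change in each list and the uncalled genes of short lists, RefSeq neighbours with a probe, and the genes nearest to the threshold. BTG1, CHAF1A and NASP were named outside that rule, after their values were seen. The alternatives tried were shifts of the arrays, an adjusted p, other fold thresholds, robust variances, other averages, the last probe of a gene, names without the partial list and each array left out. The number of arrays limits the precision.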

Additional observations from a re-analysis of the deposited data

Results flagged for a closer look

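Among 42 probes of the cell cycle lists, 1 had an array far from the other 3. ORC6, a subunit of the origin recognition complex and one of the E2F targets, had a log2 ratio of 2.26 on array 4 and 1.53 to 1.64 on arrays 1 to 3, a gap of 0.851 of the whole range. Chance sets apart about 1 in 20 such groups. The check used the values as deposited, and array 4 also had the highest median of the gene probes, at 0.47. The check was not repeated with the array medians set to 0. None of CDKN2B, CCNG1, CCNG2 and E2F1 was set apart in this way.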

How the results depend on the processing

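No result for the 4 genes changed direction under any alternative, which follows largely from their selection on these same arrays. With array medians set to 0, the mean log2 ratio of CCNG1 moved to -2.07, and with each array shifted by its negative controls CCNG1 moved to -2.14 and CCNG2 to -1.98, each by more than its SD as deposited. The shift subtracts a positive mean, so every gene becomes more negative or less positive. With 1 array left out, the mean ran from -7.58 to -7.35 for CDKN2B, -1.91 to -1.81 for CCNG1, -1.80 to -1.63 for CCNG2 and 1.27 to 1.54 for E2F1. With array medians set to 0, and after the shift by the negative controls, 29 and 28 E2F targets and 6 and 6 p53 targets were called, against 31 and 5 as deposited. A 3 fold threshold left 2348 called gene probes (878 higher, 1470 lower) of 5119, and E2F1 was then not called, with 1 of the E2F and DP family, 19 E2F targets and 3 p53 targets called. Without a fold threshold 18052 probes were called (12421 higher, 5631 lower), and CDK6 made 1 called kinase. Without the partial list of symbols, chosen after seeing the data, 3 p53 targets were called. With 1 array left out the called gene probes ran from 5122 to 5339 and the CDK inhibitors from 2 to 3, while the other lists kept their counts. Each ratio pairs both cell types within an array, so the fit already uses that pairing, and no replicate block could be added with a single group of ratios. No other probe of the 4 genes could be named, so that alternative was not run. Intensities were not used, so signal over background is unknown.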
